A study of Mus musculus with 9 samples.

Results

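The 8 genes Cd200r1, Cd200r2, Cd200r4, Sirpa, Pilra, Cd300a, Cd300lf and Pirb code for cell-surface receptors through which myeloid cells are restrained or, for some relatives, activated. They were selected by name, from 25494 genes in the table of normalized counts, and the choice was made with their fold changes among the 3 groups already in view. Their levels and fold changes are therefore given as a description, without a test. All 8 genes were listed in each of the 3 comparison tables.

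RNA abundance was measured by sequencing rRNA-depleted total RNA from mouse bone marrow-derived macrophages that lacked endogenous tristetraprolin (TTP, gene Zfp36) in every group. The cells had been grown from bone marrow with 10 ng/ml M-CSF for 10 days, immortalized with human c-myc and an activated Ras oncogene, selected for CD11b and F4/80 and transduced with vectors from which doxycycline induces GFP, GFP-TTP (the group TTP) or GFP-TTP-AA (TTP-AA, in which the serines phosphorylated by the kinase MK2 are alanines). All libraries came from cells given 1 µg/ml doxycycline for 6 h and 1 µg/ml LPS, the bacterial ligand of Toll-like receptor 4, for 1 h, so that no library was without either agent. Each group held 3 libraries, 9 in all, and each transgene was carried by cells transduced separately, so that an effect of the transgene and a difference between the transduced populations cannot be told apart.

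TTP binds AU-rich elements in the 3′UTR of mRNAs, recruits deadenylases and so promotes their decay, and phosphorylation by MK2 during inflammation weakens this activity. Inhibitory receptors of myeloid cells carry tyrosine motifs in their cytoplasmic tails that Src-family kinases phosphorylate and that then bind the phosphatases SHP-1 (Ptpn6) and SHP-2 (Ptpn11). Many have near-identical relatives with short tails that pair with the activating adaptor DAP12 (Tyrobp) or with the Fc receptor gamma chain, and the families are called paired receptors. Cd200r1 binds CD200 and inhibits through Dok adaptors rather than phosphatases, whereas Cd200r2 and Cd200r4 code for short-tailed relatives of the activating kind. Sirpa is the receptor for CD47, Pilra recognizes sialylated proteins, Cd300a and Cd300lf bind lipids such as phosphatidylserine, and Pirb binds MHC class I.

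A single match to TATTTAT, the DNA form of the 7-base element that TTP prefers, was found in the annotated 3′UTR of Pilra, of Pirb and of Cd300lf, and 3 matches were found in that of Cd300a. They are shown because TTP is the protein that differed between the groups. Each sequence runs 5′ to 3′ on the transcribed strand of GRCm38, with the element in capitals, and was found by a search of that strand only in the transcript with the longest coding sequence.
Pirb, chr7:3711814-3711842, minus strand: tggatatatttTATTTATgtgtagtatgt
Pilra, chr5:137823152-137823180, minus strand: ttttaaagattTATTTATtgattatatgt
Cd300lf, chr11:115116674-115116702, minus strand: caatcaaccttTATTTATtgtttttcata
Cd300a, chr11:114901939-114901967, plus strand: taaaaaaagatTATTTATttattatatgt
Cd300a, chr11:114902393-114902421, plus strand: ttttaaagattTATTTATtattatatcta
The first Cd300a match overlapped a further one at chr11:114901943-114901971. The Pirb element lay at base 820 of a 3′UTR of 1242 bases, that of Pilra at base 303 of 1520, and that of Cd300lf at base 283 of 760. No TATTTAT was found in the 3′UTRs of Cd200r1 (638 bases), Cd200r2 (787), Cd200r4 (703) or Sirpa (2036). Of all 16123 measured protein-coding genes with an annotated 3′UTR, 26.1% held at least 1 match, and among genes with a 3′UTR of similar length the share was 29.4% for Pirb, 34.4% for Pilra, 19.2% for Cd300lf, 56.6% for Cd300a and 19.9% for Cd200r2. The shorter ATTTA, which TATTTAT contains, occurred 5 times in the 3′UTR of Cd200r1, 3 times in Cd200r4, 1 time in Sirpa and 0 times in Cd200r2. It occurred 10 times in that of Cd300a, 3 times in Pilra and 2 times each in Cd300lf and Pirb. The share of all genes with ATTTA was not counted. A match describes letters in the annotation, and binding by TTP was not analysed here.

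The library values were fitted means of the authors' count model on each library's own read scale. Their totals ran from 21482954 reads in TTP replicate 1 to 102613526 in TTP-AA replicate 3, and the other 7 lay between 25504519 and 38032238. They were scaled here for depth, and a level below is the mean of a group's 3 depth-scaled values on the log2 scale, turned back into a read count. In such a model the same-numbered libraries of the groups share 1 term per gene, so the difference between groups was the same at each replicate number and scatter between cultures was absent. Whether the libraries of a pair of groups overlap, as given below, compares the group difference with that term only. It does not measure spread between cultures. Errors are therefore counting errors (SE, or 95% interval), which leave out the spread between cultures. Zfp36, the gene lost in all groups and supplied by 2 of the transgenes, had 890 to 1745 reads in the GFP libraries, 913 to 1787 in TTP and 1443 to 2828 in TTP-AA, with levels of 1303, 1332 and 2109. Its reads did not separate the libraries labelled TTP from those labelled GFP. Group names below are those of the labels. The macrophage identity was checked with Csf1r, Cd68, Itgam (CD11b) and Emr1 (F4/80), whose GFP levels were 20222, 9835, 8638 and 16726 reads. Of the 10 macrophage markers found, 9 had a mean of at least 50 reads. Mertk was under it, with levels of 19.7, 16.2 and 19.5 in GFP, TTP and TTP-AA. Fcgr1, with a GFP level of 662, differed between groups and is described below. Markers of other cells were low: the summed level of the mast cell and basophil list, of which 3 of 7 genes were found, was 1.70 to 1.85 reads in each group, and those of the B cell, T cell and fibroblast lists were below 6 reads. S100a8 (neutrophil list) had levels of 138, 139 and 235 in GFP, TTP and TTP-AA, and Flt3 (dendritic cell list) had 249, 240 and 213. Among the macrophage markers, Emr1 itself differed between groups, with a log2 difference of -0.76 in TTP against GFP and 0.68 in TTP-AA against GFP, and its part in the results below was not tested.

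Pirb had the widest and Cd200r2 the next widest difference between groups, in different patterns: Pirb was lowest in TTP and highest in TTP-AA, whereas Cd200r2 was close in GFP and TTP and low in TTP-AA. Pilra followed the order of Pirb with smaller differences. The remaining 5 genes stayed within 1.5-fold in every comparison. The plot of depth-scaled counts by library shows every value, and the values of each gene are given in the paragraphs on its family.

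**Figure D1:**
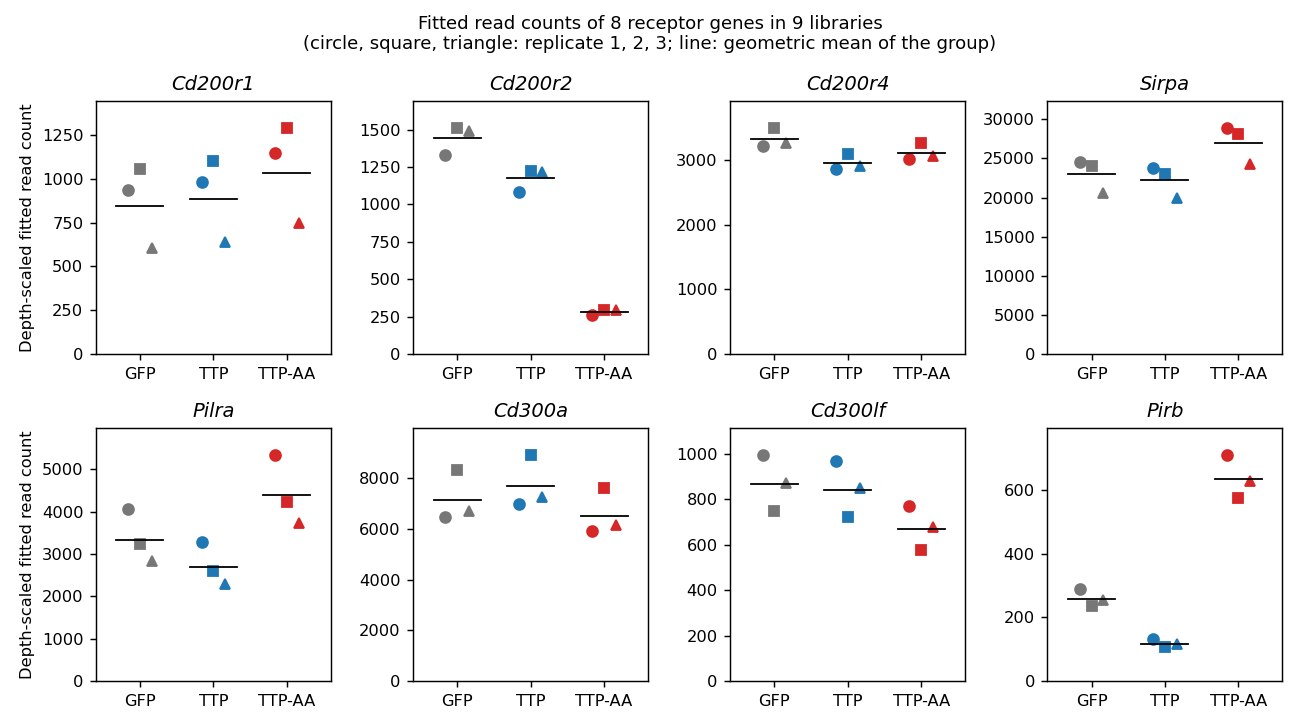
Depth-scaled fitted read counts (y axis, linear from 0, a separate scale per gene) of the 8 receptor genes in the GFP, TTP and TTP-AA libraries. Symbols mark replicates 1 to 3 and lines the group level. Cd200r2 lay at 261 to 295 in TTP-AA against 1332 to 1511 in GFP, and Pirb at 577 to 713 in TTP-AA against 106 to 131 in TTP.

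The Cd200 receptor genes lie in a cluster on chromosome 16 (GRCm38, plus strand), with Cd200r1 at chr16:44765736-44794978, Cd200r4 at chr16:44811733-44839150 and Cd200r2 at chr16:44867097-44915840. Cd200r2, the activating relative, had depth-scaled counts of 1332, 1511 and 1491 in GFP replicates 1 to 3, of 1086, 1224 and 1218 in TTP, and of 261, 295 and 292 in TTP-AA. The 3 TTP-AA values lay below all others, and the TTP values lay below the GFP values without overlap. Cd200r2 was 5.12-fold lower in TTP-AA than in GFP, a log2 difference of -2.36 (counting SE 0.046), and 4.17-fold lower than in TTP, a log2 difference of -2.06 (SE 0.048). Between TTP and GFP the log2 difference was -0.30 (SE 0.034). Only 6 of the 11120 genes with a mean of at least 50 reads, Cd200r2 included, differed as much between TTP-AA and GFP. In RNA of a whole culture, fewer cells with the transcript and less of it per cell cannot be told apart.

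The neighbouring Cd200 receptor genes were within 1.5-fold in every comparison. Cd200r4, also an activating relative, had 3223, 3499 and 3261 reads in GFP, 2868, 3091 and 2906 in TTP and 3026, 3273 and 3061 in TTP-AA. Its log2 differences were -0.17 in TTP against GFP, -0.09 in TTP-AA against GFP and 0.08 in TTP-AA against TTP, each with a counting SE of about 0.02, and only the first pair of groups did not overlap. Cd200r1, the inhibitory receptor of CD200, had 935, 1055 and 607 reads in GFP, 982, 1100 and 638 in TTP, and 1147, 1290 and 745 in TTP-AA. The groups of Cd200r1 overlapped in all comparisons, since replicate 3 was low in each of them. This replicate-number term spanned 0.80 on the log2 scale for Cd200r1, against a median of 0.32 over all genes, and was wider than its largest difference between groups, 0.29 in TTP-AA against GFP. Its log2 difference in TTP against GFP was 0.07, with a counting interval of -0.01 to 0.15. Centred on the median of chromosome 16, the differences of TTP-AA from GFP and from TTP were 0.18 and 0.10 for Cd200r1 and -0.21 and -0.05 for Cd200r4, so that the last changed sign. The related Cd200r3 had a mean of 31.9 reads, under the minimum of 50, and log2 differences of -0.02 (SE 0.21) in TTP against GFP and -0.41 (SE 0.19) in TTP-AA against GFP. Few reads of 50 bases could be shared within the cluster, since 4.35% of the 50-base windows of Cd200r2 transcripts, 4.94% of those of Cd200r4 and 1.16% of those of Cd200r1 occurred in another gene.

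Pirb, an inhibitory receptor for MHC class I, lies on the minus strand at chr7:3711409-3720391. Its depth-scaled counts were 290, 236 and 256 in GFP, 131, 106 and 116 in TTP, and 713, 577 and 629 in TTP-AA. The 3 groups did not overlap, with TTP lowest and TTP-AA highest. Pirb was 2.21-fold lower in TTP than in GFP, a log2 difference of -1.14 (counting SE 0.098), and 2.46-fold higher in TTP-AA than in GFP, a log2 difference of 1.30 (SE 0.059). Between TTP-AA and TTP the difference was 5.43-fold, or 2.44 on the log2 scale (SE 0.087), and 37 of the 11120 genes differed as much. Pirb rested on the fewest reads of the 8 genes, 308 over the 3 TTP libraries before scaling, and 34.0% of its 50-base windows occurred in another gene, most often in Gm14548 (17.7%), so that reads of the Pir genes could be counted for one another.

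Sirpa, the CD47 receptor at chr2:129592835-129632228 (plus strand), had 24583, 23979 and 20636 reads in GFP, 23791, 23040 and 19999 in TTP and 28895, 28074 and 24245 in TTP-AA. TTP-AA lay above TTP in every library, and the other pairs of groups overlapped. The log2 differences of Sirpa were -0.05 (SE 0.008) in TTP against GFP, 0.23 (SE 0.007) in TTP-AA against GFP and 0.28 (SE 0.007) in TTP-AA against TTP, and none of its windows occurred in another gene. Pilra, at chr5:137821952-137836281 on the minus strand, had 4057, 3225 and 2835 reads in GFP, 3279, 2588 and 2295 in TTP and 5347, 4233 and 3734 in TTP-AA. Pilra was lowest in TTP and highest in TTP-AA at each replicate number, and only TTP and TTP-AA did not overlap across numbers. Its log2 differences were -0.31 (SE 0.023) in TTP against GFP, 0.40 (SE 0.018) in TTP-AA against GFP and 0.71 (SE 0.020) in TTP-AA against TTP, the last being 1.63-fold. Exons of Zcwpw1, on the other strand, covered 468 of the 3090 exon bases of Pilra, and since the use of strand in counting was not stated, their reads cannot be told apart there. Zcwpw1 had log2 differences of -0.46, -0.88 and -0.43 in the 3 comparisons, in that order.

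The Cd300 genes lie on chromosome 11, Cd300a at chr11:114890041-114904654 (plus strand) and Cd300lf at chr11:115116214-115133992 (minus strand). Cd300a, an inhibitory receptor for phosphatidylserine and phosphatidylethanolamine, had 6483, 8341 and 6724 reads in GFP, 6986, 8925 and 7256 in TTP and 5931, 7602 and 6149 in TTP-AA. Its groups overlapped, and its order was the opposite of that of Pirb, with TTP highest and TTP-AA lowest at each replicate number. The log2 differences of Cd300a were 0.11 (SE 0.014) in TTP against GFP, -0.13 (SE 0.013) in TTP-AA against GFP and -0.24 (SE 0.013) in TTP-AA against TTP. Cd300lf, another inhibitory member, had 997, 747 and 874 reads in GFP, 970, 722 and 852 in TTP and 772, 576 and 676 in TTP-AA. GFP and TTP were close for Cd300lf, with a log2 difference of -0.04 and a counting interval of -0.12 to 0.04, and TTP-AA differed by -0.37 (SE 0.039) from GFP, with overlap across replicate numbers. Fold changes centred on the median of chromosome 11 were nearer 0 when TTP-AA was compared with GFP or with TTP, at -0.01 and -0.09 for Cd300a and at -0.25 and -0.18 for Cd300lf.

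**Figure D2:**
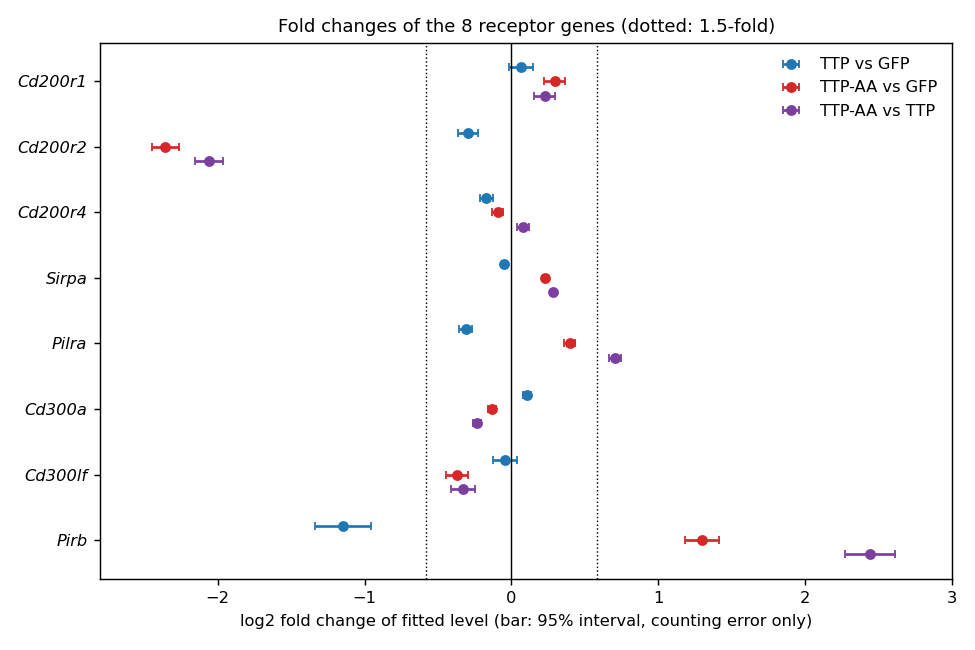
Log2 fold change of the fitted level (x axis) of each of the 8 genes in TTP vs GFP (blue), TTP-AA vs GFP (red) and TTP-AA vs TTP (purple), with 95% counting intervals as bars and 1.5-fold as dotted lines. Pirb passed 1.5-fold in all 3 comparisons, Cd200r2 in those with TTP-AA and Pilra only in TTP-AA vs TTP (0.71).

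Counted together, 1 of the 8 genes, Pirb, was past 1.5-fold in TTP vs GFP, where 3.48% of the 11120 genes with a mean of at least 50 reads were. In TTP-AA vs GFP the genes past 1.5-fold were Cd200r2 and Pirb, 2 of 8, in opposite directions, against 5.38% of all genes. In TTP-AA vs TTP they were Cd200r2, Pirb and Pilra, 3 of 8, against 8.57% of all genes. These counts follow from the choice of the genes. The median log2 difference over the 8 was -0.11, 0.07 and 0.15 in the 3 comparisons, beside 0.00, -0.01 and -0.01 over all 11120 genes. Of the 8 genes, 2 were higher and 6 lower in TTP vs GFP, 4 were higher and 4 lower in TTP-AA vs GFP, and 5 were higher and 3 lower in TTP-AA vs TTP. The first pair of comparisons shares the GFP libraries, and each pair of comparisons shares a group.

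Per kb of exon, Sirpa had the highest level in every group, 4683 reads per kb in GFP, 4523 in TTP and 5496 in TTP-AA. Cd200r4 and Cd300a followed in GFP, with 1626 and 1506 reads per kb and overlapping libraries, then Pilra with 1079 and Cd200r2 with 824. Cd200r1 (252) and Cd300lf (168) also overlapped, and Pirb was lowest with 58.0. In TTP the order was the same except that Cd300a, at 1620, lay above Cd200r4, at 1444, with overlap, and Pirb was at 26.3 reads per kb. In TTP-AA, Cd200r2 had 161 reads per kb and Pirb 143, with overlapping libraries, and Cd300lf, at 130, also overlapped with Pirb. The level of Cd200r2 relative to the inhibitory Cd200r1 thus lay above it in GFP and TTP and below it in TTP-AA, where Cd200r1 had 308 reads per kb and the libraries of the pair did not overlap.

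A wider list of paired receptors and their relatives held 41 symbols, of which 32 were found and 25 had a mean of at least 50 reads. In TTP vs GFP, 4 of the 25 were lower and none higher by 1.5-fold, where 2.52% of all 11120 genes were lower. In TTP-AA vs GFP, 8 were higher and none lower, beside 3.36% of all genes higher, and in TTP-AA vs TTP 13 were higher and none lower, beside 5.54% of all genes higher. The median log2 difference of the list was -0.32, 0.20 and 0.61 in the 3 comparisons. These genes were not among the 8, but the list was written with results of these data known. Pira2, the activating counterpart of Pirb, had levels of 182, 71.3 and 347 in GFP, TTP and TTP-AA, with log2 differences of -1.35 (SE 0.12) in TTP against GFP and 0.93 (SE 0.073) in TTP-AA against GFP. Of its 3462 windows of 50 bases, 3218 occurred in another gene, so reads of several Pir genes could be counted in its value.

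The activating relatives of Sirpa and Pilra had GFP levels between those of TTP and TTP-AA, as those receptors did. When TTP-AA was compared with GFP, their differences were larger than those of Sirpa and Pilra. Sirpb1c differed by -0.41 (SE 0.10) in TTP vs GFP and by 1.08 (SE 0.073) in TTP-AA vs GFP, Sirpb1a by -0.49 (SE 0.17) and 0.81 (SE 0.12), and Sirpb1b by -0.45 (SE 0.15) and 0.76 (SE 0.11), while Sirpa differed by -0.05 and 0.23. The Sirpb1 genes shared windows with one another (40.4% to 58.0% of each occurred elsewhere), so the 3 values may not be independent. Pilrb1 differed by -0.25 (SE 0.10) and 0.74 (SE 0.081), and Pilrb2 by -0.13 (SE 0.092) and 0.60 (SE 0.075), beside -0.31 and 0.40 for Pilra. Of the windows of Pilrb1 and Pilrb2, 32.2% and 30.6% occurred in another gene, most often in each other. In the Cd300 family the relatives went various ways: AF251705 (Cd300c2) differed by -0.80 (SE 0.034) and 0.46 (SE 0.025), Cd300lh by -0.72 (SE 0.15) and 0.20 (SE 0.11), and Cd300e by -0.40 (SE 0.095) and 0.73 (SE 0.071). Of the windows of Cd300lh, 82.1% occurred in Cd300ld5, so reads of that gene could be counted in its value. Cd300a and Cd300lf were lower in TTP-AA than in GFP, as were Cd300lb (-0.20) and Cd300lg (-0.43). The plot of receptor families sets these values side by side.

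**Figure D3:**
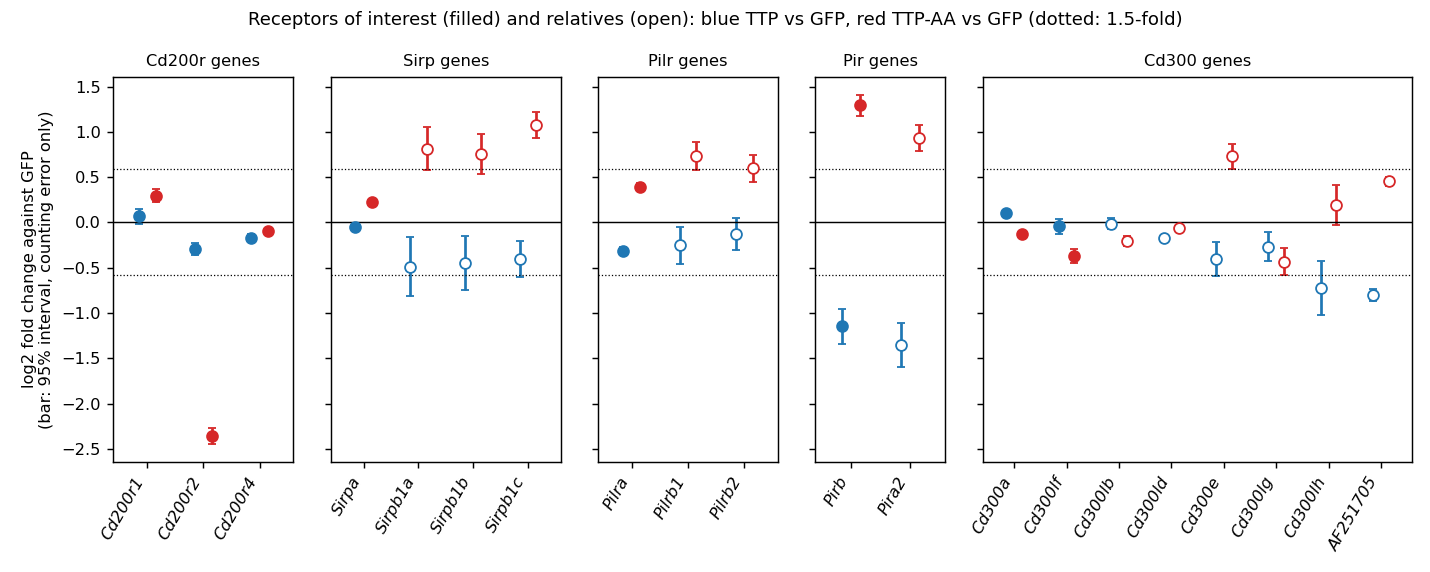
Log2 fold change against GFP (y axis) of receptors described above (filled) and of relatives with a mean of at least 50 reads (open), by family, for TTP (blue) and TTP-AA (red), with 95% counting intervals as bars. Pirb and Pira2 lay below -1.1 in TTP and above 0.9 in TTP-AA, and Cd200r2 was at -2.36 in TTP-AA while Cd200r1 and Cd200r4 lay between -0.09 and 0.29.

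Other genes of the list past 1.5-fold were Siglece, an inhibitory sialic acid receptor, and Trem1, an activating receptor that amplifies inflammation. Lair1, an inhibitory collagen receptor, and Cd274, which codes for the ligand PD-L1, were past it as well. For Siglece the log2 differences were -0.80 (SE 0.16) in TTP vs GFP and 1.37 (SE 0.14) in TTP-AA vs TTP, and for Trem1 they were -0.32 (SE 0.052) and 1.10 (SE 0.045). Lair1 and Cd274 passed only in TTP-AA vs TTP, at 0.61 (SE 0.023) and 0.62 (SE 0.060). Trem2, the receptor of the list with the most reads (mean 11015), differed by -0.04 in TTP vs GFP and by -0.23 in TTP-AA vs GFP.

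Of the 9 ligands listed, 6 were found and 2 had a mean of at least 50 reads. Cd47, the ligand of Sirpa, had levels of 2205 in GFP, 1729 in TTP and 3344 in TTP-AA, with log2 differences of -0.35 (SE 0.028) in TTP against GFP, 0.60 (SE 0.021) in TTP-AA against GFP and 0.95 (SE 0.024) in TTP-AA against TTP. Angptl2, a secreted ligand of Pirb, had levels of 3425, 5223 and 4570, with log2 differences of 0.61 (SE 0.019) in TTP against GFP and 0.42 (SE 0.018) in TTP-AA against GFP. Cd47 was thus lowest in TTP and highest in TTP-AA, as Sirpa and Pirb were, and Angptl2 was highest in TTP. Cd200 was on the list but was not among the ligands found.

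All 12 genes listed for the signalling of inhibitory receptors were measured, and 1 of them was past 1.5-fold in any comparison, namely in TTP-AA vs TTP, where 8.57% of all genes were. This was Fyb, an adaptor protein of immune cells, with log2 differences of -0.50 (SE 0.030) in TTP against GFP and 0.99 (SE 0.027) in TTP-AA against TTP. The phosphatase gene Ptpn6 (SHP-1), the highest of the list with a mean of 8948 reads, differed by -0.11 (SE 0.013) and 0.29 (SE 0.012) in the same comparisons, and Ptpn11 (SHP-2) by -0.01 (SE 0.014) and 0.00 (SE 0.013). Dok2, the adaptor through which Cd200r1 acts, differed by -0.01 in TTP vs GFP and by 0.15 in TTP-AA vs GFP. The list's median was -0.09, -0.02 and 0.07 in the 3 comparisons.

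Among the activating adaptors and kinases, 10 of 11 had a mean of at least 50 reads. Src differed by 0.59 (SE 0.027) in TTP vs GFP and by 0.84 (SE 0.024) in TTP-AA vs GFP. Tyrobp (DAP12), the partner of the activating relatives, had levels of 23976, 21946 and 21971, with a log2 difference of -0.13 (SE 0.008) in TTP against GFP and 0.00 (SE 0.008) in TTP-AA against TTP. Tyrobp was thus close in TTP and TTP-AA, between which Cd200r2 differed 4.17-fold. Fcer1g, the Fc receptor gamma chain that partners Pira proteins, had levels of 5415, 4631 and 6266, with log2 differences of -0.23 (SE 0.017) in TTP against GFP, 0.21 (SE 0.015) in TTP-AA against GFP and 0.44 (SE 0.016) in TTP-AA against TTP. Fcer1g was thus lowest in TTP and highest in TTP-AA, within 1.5-fold. The macrophage marker Fcgr1, an activating Fc receptor, differed by -1.21 in TTP vs GFP and by -0.39 in TTP-AA vs GFP.

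The genes lying near Cd200r2 and Pirb were examined next, since receptor genes of both families are clustered. Within 500 kb of Cd200r2, 6 other genes had a mean of at least 50 reads, and none was past 1.5-fold in any comparison. The widest in TTP-AA against GFP were Slc35a5, at -0.55, and BC027231, at 0.38. Within 500 kb of Pirb, 16 other genes were measured at that level, and Pira2, Tarm1, Ttyh1 and Lair1 were the 4 past 1.5-fold in TTP-AA vs TTP, all higher, by 2.28, 0.91, 0.69 and 0.61 on the log2 scale, beside 5.54% of all genes higher in that comparison. Tarm1 codes for an activating receptor and Lair1 for an inhibitory one, both of the immunoglobulin superfamily like Pirb. Of 11 such genes near Sirpa none was past 1.5-fold in any comparison. Of 23 near Pilra, Pilrb1 and Pilrb2 were higher and Zcwpw1 lower by 1.5-fold in TTP-AA vs GFP, beside 5.38% of all genes in either direction. Pilrb1 and Pilrb2 were also higher in TTP-AA vs TTP, beside 5.54% of all genes. There were 14 such genes near Cd300a and 26 near Cd300lf. Besides relatives of their own family, Kif19a (-0.85) and Fdxr (-0.68) were lower in TTP-AA than in TTP, beside 3.03% of all genes lower by 1.5-fold. Kif19a was also higher in TTP than in GFP, by 0.62.

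**Figure D4:**
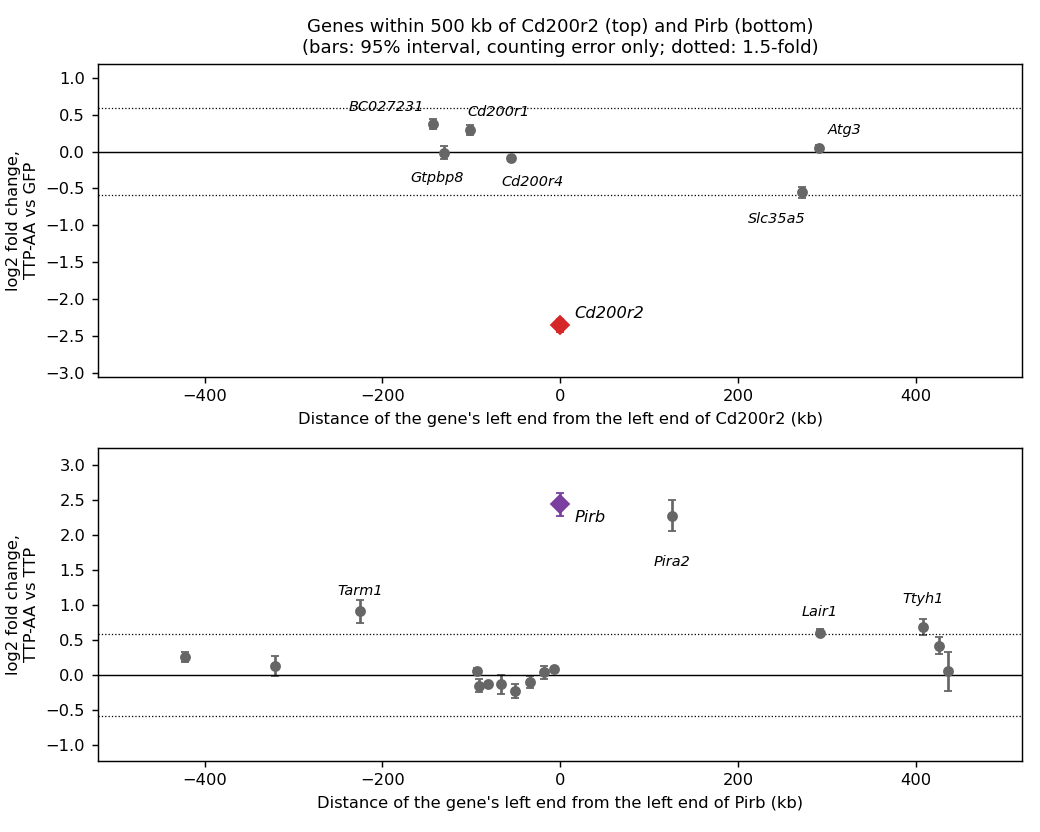
Log2 fold change (y axis) of genes with a mean of at least 50 reads by the distance in kb of their left end from that of Cd200r2 (top, TTP-AA vs GFP) or of Pirb (bottom, TTP-AA vs TTP), with 95% counting intervals as bars and 1.5-fold as dotted lines. Cd200r2 (-2.36) stood apart from its 6 neighbours, which lay between -0.55 and 0.38, while Pira2 (2.28) lay near Pirb (2.44) on the y axis.

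Genes with the most similar pair of fold changes against GFP were found by the distance, on the log2 scale, in the plane of TTP vs GFP and TTP-AA vs GFP over all 11120 genes. For Pirb the nearest 5 were Evl (distance 0.05), Fmnl2 (0.15), Ddx3y (0.15), Gypc (0.18) and Gng11 (0.24). Ddx3y lies on the Y chromosome and had log2 differences of -1.18 in TTP against GFP and 1.44 in TTP-AA against GFP. For Cd200r2, Gpr34 (0.43), Gm5611 (0.77), Isl2 (0.96) and Lyz1 (1.03) were among the nearest, farther away than those of Pirb. Gpr34, a receptor of myeloid cells, had log2 differences of -0.38 in TTP against GFP and -1.93 in TTP-AA against GFP. The likeness is a distance between 2 fold changes per gene, and the order of the groups need not be the same. Gm5611 was at 0.35 in TTP against GFP, where Cd200r2 was at -0.30.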

How the data were processed

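Reads (50 bases, single end) were trimmed with Trim Galore, aligned to GRCm38 with TopHat (2.0.12 in the submitters' processing notes) and the Ensembl annotation, and counted with HTSeq by the authors. The deposited signal values, named normalized counts, were found to be fitted means of the authors' DESeq2 1.6.3 model with library date and condition. No value was 0, and the centred log2 matrix had 4 nonzero singular values of 8 possible. Replicate scatter was absent, so the planned limma test could not be run. The authors' mean signal per gene was used only as a check: the ratio of the scaled mean to it had a median of 1.00. The 5th and 95th percentiles of this ratio were 0.95 and 1.01. The scaled mean lay below the authors' mean for Pirb (339 against 360), Cd200r2 (968 against 1019) and Pilra (3510 against 3545). It lay above for the other receptors. Their fold changes, standard errors and p-values were not used. Whether their fit shrank fold changes, which would bring those of low genes nearer 0, is not given in the sources used here. In the B cell and fibroblast lists, all with few reads, log2 differences in TTP-AA vs GFP were at most 0.12 (Ms4a1, counting SE 0.95). Zbtb46 of the dendritic cell list (mean 32.0 reads) differed by -1.10 (SE 0.21). The fold changes given here come from the same fitted values, so any shrinkage would be in them too.

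From the library values, depth factors were computed as medians of ratios (genes with a mean of at least 10), and fold changes as differences of mean log2 values, with Python 3.11.15, numpy 2.4.6 and pandas 2.3.3. The counting SE was taken from the fitted reads of each group. A difference of 1.5-fold was used as a descriptive threshold among genes whose mean was 50 or more. The fold and interval calculation was tested on simulated data that held counting error only and were not refitted. That test checks the calculation and does not show that the intervals hold for fitted values. Of 25504 rows, 10 repeated genes were left out. Positions, exon lengths, 3′UTRs and shared 50-base windows came from GENCODE mouse release 21 on GRCm38, a later annotation than that of the authors. The receptors and gene lists were chosen with earlier results of these data known. Named were the 8 receptors, genes of the 4 lists, and of those within 500 kb, past 1.5-fold with a mean of at least 50, the highest of each list and the 5 genes nearest to Pirb and Cd200r2. Genes named beyond that rule (Cd200r3, Fcer1g, Ptpn11, Dok2, Cd300lb, Cd300ld, Cd300lg, Slc35a5, BC027231, Zfp36 and some markers) were chosen after their values were seen. Some genes that the rule names are not reported here. Groups and replicate numbers came from the sample titles, and the design text of the series calls the libraries biological replicates.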

Additional observations from a re-analysis of the deposited data

Results flagged for a closer look

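For 4 of the 8 receptor genes, the libraries of TTP and those of TTP-AA differed from GFP in opposite directions at every replicate number. The share of all genes that did so was not counted, so whether 4 of 8 is many cannot be told. Because the library values were fitted, the replicate numbers are not separate observations, and the difference between the effects was not tested. It was 2.44 on the log2 scale for Pirb, 0.71 for Pilra and 0.28 for Sirpa, with GFP between a lower TTP and a higher TTP-AA for each. For Cd300a it was -0.24, with TTP higher and TTP-AA lower than GFP. Centred on the median of its chromosome, that difference was -0.09. Both effects share the GFP libraries.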

How the results depend on the processing

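The counts of receptor genes past 1.5-fold (1, 2 and 3 in TTP vs GFP, TTP-AA vs GFP and TTP-AA vs TTP) were the same with scaling by library total, with scaling by the upper quartile and with fold changes centred on the median of each gene's chromosome. Those scalings moved the log2 differences of the 8 genes by at most 0.011, 0.024 and 0.15, and the sign changed only for Cd200r4 in TTP-AA vs TTP, from 0.08 to -0.05 with centring by chromosome. Leaving out each replicate in turn gave counts of 1, 2 and 3 again, which follows from the fitted values and says nothing about stability. With no minimum mean, the shares of all genes past 1.5-fold were 2.02%, 3.34% and 5.22% in the 3 comparisons. No paired analysis was possible because the library values hold no scatter within a replicate number, so limma fits with or without the replicate block, and their pseudocounts, were not run. The counting error was smallest for Sirpa and largest for Pirb, and the error between cultures was not measured by these values.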
